A study of Mus musculus with 34 samples.

Results

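The genes described here are those that load and present peptides on major histocompatibility complex (MHC) class II molecules: H2-Aa, H2-Ab1 and H2-Eb1 (chains of the classical class II molecules), Cd74 (the invariant chain), H2-DMa and H2-DMb1 (the chains of the peptide loader H2-M), H2-Oa and H2-Ob (the chains of its inhibitor H2-O) and Ciita (the class II transactivator). They were chosen by name and role, not by a measured value, though with earlier results of these data known. The expression tables, of 32098 genes, held all 9. All 9 passed the filter on low values in both tables. RNA was measured by sequencing of the stromal vascular fraction (SVF), the cells that sink when collagenase-digested fat is spun, from visceral white adipose tissue of male C57BL/6J mice. Mice were fed either a high fat diet (HFD) with 60% of its kilocalories from fat or a control diet (CHOW) from 6 weeks of age. The groups were CHOW for 8 weeks (4 libraries), HFD for 8 weeks (6), CHOW for 20 weeks (5), HFD for 20 weeks (6), CHOW for 34 weeks (7) and HFD for 34 weeks (6), so that mice were 14, 26 or 40 weeks old at the end and had all been fasted before tissue was taken. The control diet came in 2 formulas, D12450B and D12450K, and the sources used here do not assign them to libraries. Nor do they state that each library is a separate mouse, so p-values measure the spread between libraries.

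Class II molecules carry peptides from endocytosed proteins to the surface of macrophages, dendritic cells and B cells, where CD4+ T cells read them. The newly made α and β chains assemble around the invariant chain, which fills the groove and steers the complex to endosomes. Proteases then trim the invariant chain to a short remnant, H2-M removes the remnant and edits the peptides, and H2-O, made mainly in B cells and some dendritic cells, restrains H2-M. Ciita does not bind DNA itself and is recruited to class II promoters by factors on the X and Y boxes, among them the RFX complex (Rfx5) and NF-Y. In fat, macrophages and dendritic cells are the cells best known for class II. C57BL/6 mice make no Eα chain, so H2-Eb1 RNA in this strain is not accompanied by a surface I-E molecule.

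In GRCm38, the 7 H2 genes lie on chromosome 17 between 34092340, the start of H2-Oa, and 34316674, the end of H2-Eb1. H2-Aa (34282744 to 34287823) is on the minus strand and the other 6 on the plus strand. Ciita lies on chromosome 16 (10480059 to 10528418, plus strand). All are annotated as protein coding.

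RefSeq promoter windows, from 250 bases before to 50 after each start in GRCm38, were found for 6 of the H2 genes and not for H2-Ab1 or Ciita. The stretch from 110 to 21 bases before the start is shown for 3 genes, an α chain, a classical β chain and the β chain of H2-O, because it holds letters of the boxes that class II promoters share. Capitals mark ATTGG, the core letters of a Y box, and AACNNATG, letters of an X box, where they begin 20 to 45 bases before it.
H2-Aa (chr17:34287844-34287933, minus strand): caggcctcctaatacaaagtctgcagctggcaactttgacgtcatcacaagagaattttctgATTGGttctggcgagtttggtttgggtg
H2-Eb1 (chr17:34305757-34305846, plus strand): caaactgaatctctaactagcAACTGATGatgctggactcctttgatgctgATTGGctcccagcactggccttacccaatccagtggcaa
H2-Ob (chr17:34238795-34238884, plus strand): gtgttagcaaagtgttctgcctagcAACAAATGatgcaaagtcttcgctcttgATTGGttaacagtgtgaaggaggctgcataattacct

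All 6 genes held ATTGG on the coding strand, beginning 48 bases before the start in H2-Aa, 59 in H2-Eb1, 57 in H2-Ob, 61 in H2-DMb1 and 43 in H2-Oa. H2-DMa had it in 1 of its 2 windows, 198 bases before the start. The X letters stood ahead of the Y letters in 3 genes, with 30 bases from start to start in H2-Eb1, 28 in H2-Ob and 31 in H2-DMb1. Of all 32851 promoter windows of this length, 37.4% held ATTGG and 8.86% held AACNNATG on either strand, and 0.21% (69 windows) held both in this order on 1 strand. The 2 sets of letters do not overlap each other. The letters and the spacing were chosen with the windows of these genes in view, so the shares are a description. H2-Ob and H2-Eb1 both carried this arrangement, and their RNA levels, described next, differed widely. Whether the letters bear on the level was not tested.

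Levels are given as TPM, shares of all transcripts in a library that are set per transcript length and so can be compared between genes. The files hold no read counts and the depth is unknown. In SVF, a lower TPM of these genes can reflect fewer class II-bearing cells or less RNA in each, and these cannot be told apart. Some libraries stood apart. HFD 8 weeks replicate 3 held 124140 TPM of seminal vesicle genes, and HFD 8 weeks replicate 6 held 267370 TPM of erythroid genes. Germ cell genes summed to between 2380 and 12651 TPM in HFD 20 weeks replicates 3, 4 and 5 and to 5142 and 5525 TPM in HFD 34 weeks replicates 1 and 2. Adipocyte genes, which should float away from SVF, reached 33806 TPM in CHOW 34 weeks replicate 6. CHOW 8 weeks replicate 3 had the highest neutrophil gene sum of all libraries (2051 TPM). Its endothelial (291 TPM) and adipocyte (3170 TPM) gene sums were the lowest of all. The leukocyte gene Ptprc and the macrophage genes Adgre1 and Csf1r were above 0 in every library.

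The 9 genes fell into 3 tiers. Cd74, H2-Aa, H2-Eb1 and H2-Ab1 had group means from 1458 to 5386 TPM, H2-DMa and H2-DMb1 from 79.5 to 194 TPM, and H2-Oa, H2-Ob and Ciita from 3.47 to 14.2 TPM. Together the 9 genes made up 1.25% ± 0.166 of all TPM in CHOW 8 weeks (SD, n = 4), 1.35% ± 0.476 in HFD 8 weeks (n = 6), 1.20% ± 0.208 in CHOW 20 weeks (n = 5), 1.04% ± 0.129 in HFD 20 weeks (n = 6), 0.881% ± 0.263 in CHOW 34 weeks (n = 7) and 1.19% ± 0.599 in HFD 34 weeks (n = 6). Ordered by their mean, no 2 neighbouring groups of a table were separated for any of the 9 genes. The tables for 8 and 20 weeks and for 34 weeks were made apart, so no test was run across them.

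**Figure D1:**
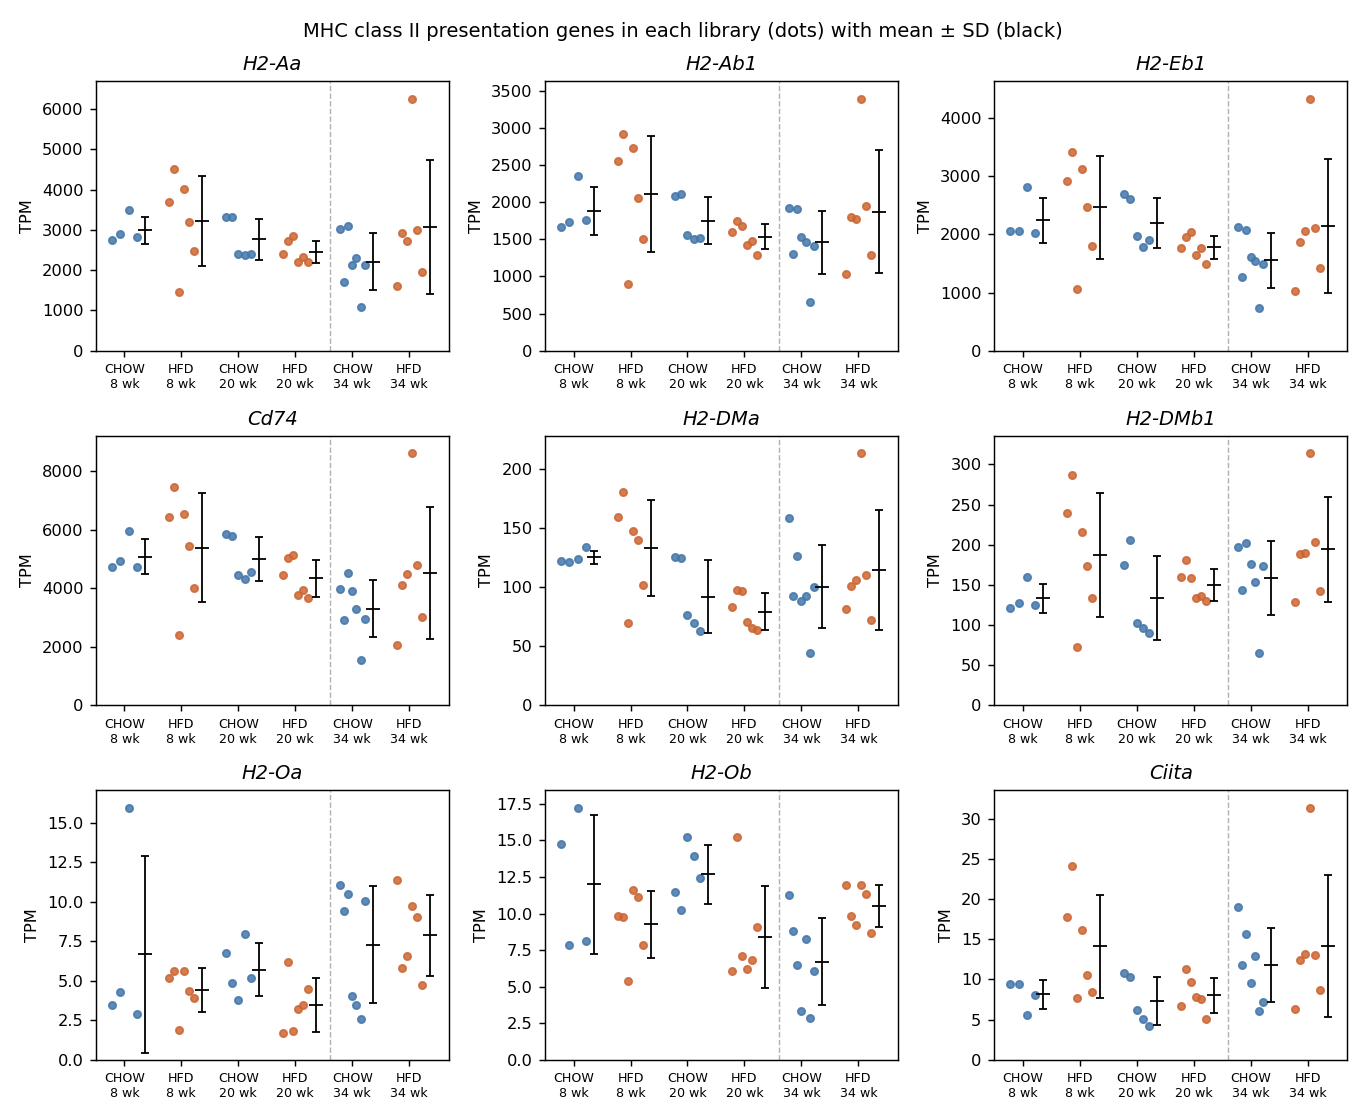
Levels of the 9 class II genes in each library. Each panel is 1 gene, the vertical axis is TPM, dots are libraries and bars the group mean ± SD, and the dashed line separates the 34 week table. For H2-Aa, the dots of HFD 8 weeks run from 1448 to 4499 TPM and those of HFD 34 weeks from 1603 to 6256 TPM, wider than the other groups.

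Neither diet nor time moved most of these genes beyond the spread between libraries. Genes were called where the Benjamini-Hochberg adjusted p of limma, over all genes tested, was under 0.05. At 8 weeks, 0 of the 9 genes were called between HFD and CHOW and 1 (Ciita) had an unadjusted p under 0.05, where 4 of 16808 genes (0.0238%) were called. At 20 weeks, 0 were called and 1 (H2-Ob) had an unadjusted p under 0.05, against 2405 genes called (14.3%). At 34 weeks, 0 were called and 1 (again H2-Ob) had an unadjusted p under 0.05, against 34 of 13982 genes (0.243%). On CHOW, 0 were called from 8 to 20 weeks and 0 had an unadjusted p under 0.05, against 103 genes (0.613%). From 8 to 20 weeks on HFD, 1 was called, the fall of H2-DMa, and 1 other gene (Ciita) had an unadjusted p under 0.05, against 1475 genes called (8.78%). The test of whether the diet difference changed from 8 to 20 weeks called 0 of the 9 and gave 0 with an unadjusted p under 0.05, against 50 genes (0.297%). In the fit as reported, a single call among 9 genes on HFD is close to the share of all genes called there. Under other settings 0 to 6 of the 9 were called on HFD, as set out at the end.

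The directions were more uniform than the calls. The median log2 fold change of the 9 genes was 0.02 between diets at 8 weeks (all genes tested -0.08), -0.18 at 20 weeks (0.08) and 0.33 at 34 weeks (0.10). From 8 to 20 weeks it was -0.07 on CHOW (all genes -0.09) and -0.31 on HFD (0.09). On HFD all 9 values lay below 0, from -0.69 to -0.15, and stayed below 0 under every scaling of the libraries that was tried. At 34 weeks all 9 values lay above 0, from 0.17 to 0.67, but those of H2-DMa, H2-Oa and Ciita went to between -0.13 and -0.10 when libraries were centred on leukocyte genes. Without HFD 34 weeks replicate 4 H2-DMa was at -0.02 and Ciita at -0.08, without CHOW 34 weeks replicate 6 H2-DMa was at -0.0037, and without the 3 CHOW libraries high in adipocyte genes H2-DMa was at -0.08, Ciita at -0.11 and H2-Oa at -0.11. The genes share their libraries and move together, so 9 values in 1 direction are not 9 separate observations.

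**Figure D2:**
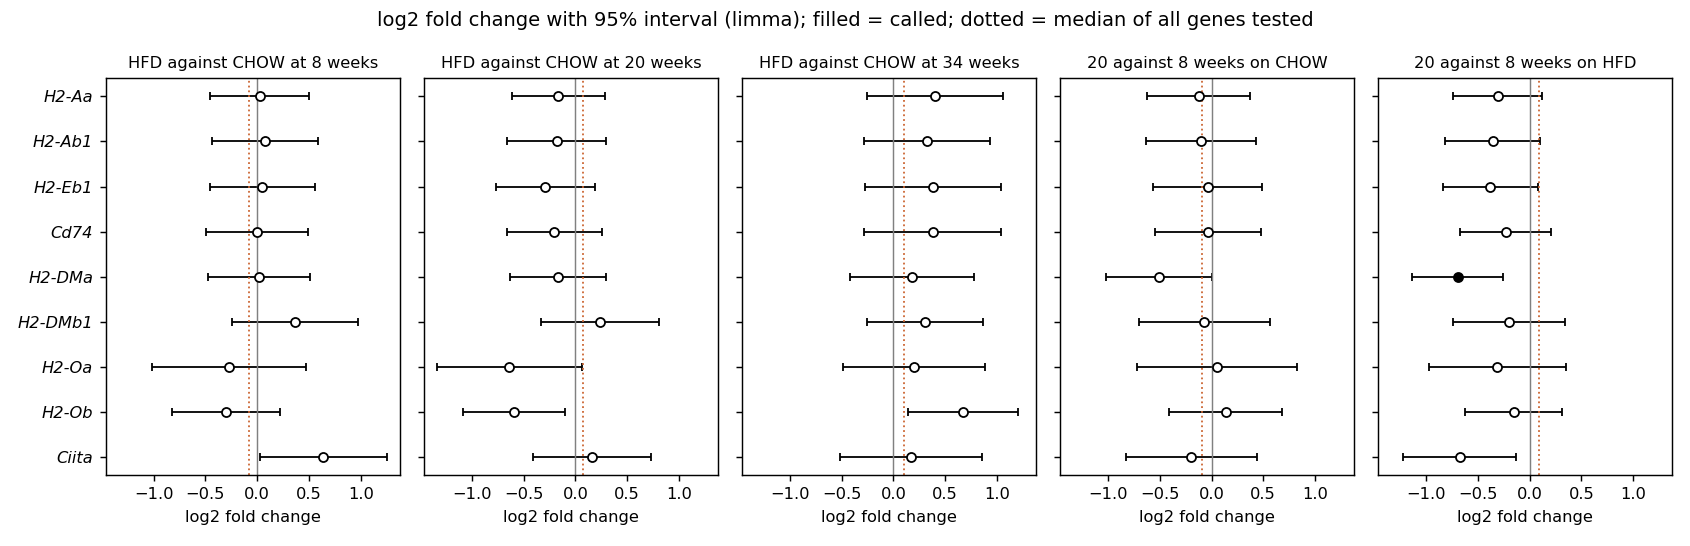
Change of each class II gene in 5 comparisons. Points are log2 fold changes of log2(TPM + 1), bars their 95% intervals from limma, filled points those with an adjusted p under 0.05, and the dotted line the median of all genes tested. The only filled point is H2-DMa from 8 to 20 weeks on HFD, at -0.69.

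The classical chains behaved as 1 block. H2-Aa, the α chain of I-A, stood at 2755, 2889, 3489.5 and 2832 TPM in the 4 CHOW 8 weeks libraries, and ran from 1448 to 4499 TPM with a median of 3443 in HFD 8 weeks. The HFD libraries lay on both sides of the CHOW ones: 3 were above and 2 below all of them. The fold change was 0.02 on the log2 scale (SE 0.23, 95% interval -0.46 to 0.50, adjusted p = 0.996). The 2 lowest HFD libraries for H2-Aa were replicate 3, at 1448 TPM, and replicate 6, at 2485 TPM, the libraries with the seminal vesicle and erythroid RNA. After TPM were rescaled without erythroid and seminal vesicle genes, a scaling chosen after the data were seen, the difference was 0.10.

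At 20 weeks H2-Aa was at 3330, 3326, 2402, 2389 and 2410 TPM in CHOW and between 2202 and 2846 TPM, median 2369, in HFD. The 2 highest CHOW libraries were above every HFD library and the other 3 lay among them. The log2 fold change was -0.16 (SE 0.22, 95% interval -0.61 to 0.29, adjusted p = 0.653). H2-Ab1, the partner β chain, gave -0.18 (95% interval -0.66 to 0.30, adjusted p = 0.642). H2-Eb1, the β chain of I-E, gave -0.29 (-0.77 to 0.19, adjusted p = 0.422). These intervals leave room for falls of more than 0.6 on the log2 scale as well as for small rises.

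Cd74, whose product chaperones class II chains and blocks their groove, lies on chromosome 18 of GRCm38 (60803848 to 60812652, plus strand) and was the most abundant of the 9 in every group. It stood at 5855, 5786, 4444, 4320 and 4574 TPM in CHOW 20 weeks and between 3686 and 5140 TPM, median 4201, in HFD 20 weeks. As for H2-Aa, CHOW replicates 1 and 2 lay above all HFD libraries and the rest overlapped. The difference was -0.20 (SE 0.22, 95% interval -0.66 to 0.26, adjusted p = 0.579). At 8 weeks it was -0.0027 (95% interval -0.49 to 0.49, adjusted p = 1.0).

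At 34 weeks the same 4 genes were higher on average in HFD than in CHOW but not beyond the spread. H2-Aa ran from 1087 to 3108 TPM (median 2138) in CHOW and from 1603 to 6256 TPM (median 2826) in HFD. The lowest CHOW library was replicate 6, the one with the most adipocyte RNA, and the highest HFD library was replicate 4, about 2 times the next. The difference was 0.40 (SE 0.31, 95% interval -0.25 to 1.06, adjusted p = 0.568), and for H2-Eb1 0.38 and for Cd74 0.38. Without HFD replicate 4 these were 0.17 for H2-Aa, 0.15 for H2-Eb1 and 0.16 for Cd74, and without CHOW replicate 6 they were 0.24, 0.22 and 0.21. Without CHOW replicates 5, 6 and 7, the libraries high in adipocyte genes, the difference was 0.20 for H2-Aa, 0.15 for H2-Eb1 and 0.11 for Cd74. The share of the adipocyte RNA in this result was not tested.

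From 8 to 20 weeks on HFD the values were -0.31 for H2-Aa (SE 0.21, adjusted p = 0.354), -0.36 for H2-Ab1 (SE 0.22, adjusted p = 0.305), -0.38 for H2-Eb1 (SE 0.22, adjusted p = 0.275) and -0.23 for Cd74 (SE 0.21, adjusted p = 0.515). The HFD 8 weeks libraries spread over a range more than 3 times from lowest to highest, and those of HFD 20 weeks were closely grouped inside it. Without HFD 8 weeks replicate 3 the first 3 were called, at -0.52 for H2-Aa (adjusted p = 0.0312), -0.58 for H2-Ab1 (adjusted p = 0.0274) and -0.60 for H2-Eb1 (adjusted p = 0.0234). The call for these 3 genes thus changed with 1 library. It also changed with the processing: of 13 other settings, H2-Aa was called in 2, H2-Ab1 in 3, H2-Eb1 in 4 and Cd74 in 1. On CHOW the same genes gave -0.12, -0.10, -0.04 and -0.03, with an adjusted p of 0.904 or more.

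The proportion of the I-A chains varied little. The ratio of H2-Aa to H2-Ab1 TPM was 1.61 ± 0.0864 in CHOW 8 weeks (SD, n = 4), 1.55 ± 0.0770 in HFD 8 weeks (n = 6), 1.58 ± 0.0241 in CHOW 20 weeks (n = 5), 1.60 ± 0.0793 in HFD 20 weeks (n = 6), 1.52 ± 0.124 in CHOW 34 weeks (n = 7) and 1.60 ± 0.124 in HFD 34 weeks (n = 6). None of the 5 comparisons had a two-sided exact permutation p under 0.05 (lowest 0.253). Across the 21 libraries of 8 and 20 weeks, Pearson's r between any 2 of H2-Aa, H2-Ab1, H2-Eb1 and Cd74 was between 0.977 and 0.989, and across the 13 libraries of 34 weeks between 0.969 and 0.992. These are descriptions, since the 4 genes were measured in the same libraries and share their depth and cell makeup.

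H2-M, which exchanges the invariant chain remnant for peptide, held the one called gene. H2-DMa, its α chain, was at 123, 122, 124 and 134 TPM in CHOW 8 weeks and at 126, 125, 76.5, 70.0 and 62.9 TPM in CHOW 20 weeks. It ran from 69.6 to 180 TPM (median 144) in HFD 8 weeks and from 63.6 to 97.3 TPM (median 76.8) in HFD 20 weeks. On HFD, 5 of the 6 libraries at 8 weeks lay above all 6 at 20 weeks, and the exception was replicate 3 with its seminal vesicle RNA.

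H2-DMa fell by 0.69 on the log2 scale from 8 to 20 weeks on HFD (SE 0.21, 95% interval -1.13 to -0.25, adjusted p = 0.0454). Over the 13 other settings the adjusted p ran from 0.000354 to 0.204, with the call kept in 8. Leaving out 1 library, the fall was between 0.59 and 0.87, with an adjusted p from 0.00587 to 0.0909. The call held without HFD 8 weeks replicate 3 and without HFD 20 weeks replicate 2 or 3, and was lost without any of the 9 other HFD libraries, at an adjusted p between 0.0514 and 0.0909. On CHOW the difference was -0.51 (SE 0.25, 95% interval -1.02 to 0.01, adjusted p = 0.407). The change on HFD minus the change on CHOW was -0.19 (95% interval -0.86 to 0.49, adjusted p = 0.808), so the fall was not shown to differ between the diets. RNA of other cells moved in the same comparison, where 8.78% of all genes were called. The 4 erythroid genes were all called lower from 8 to 20 weeks on HFD, their sum going from between 33131 and 267370 TPM to between 12596 and 30381 TPM, and 5 of 10 macrophage genes were called higher. Of 10 adipocyte genes 5 were called lower (Adipoq, Plin1, Cidec, Retn and Plin4) and 1 higher (Lpl), their sum going from between 5157 and 8981 TPM to between 4968 and 7030.1 TPM. Of 8 mesothelial genes 7 lay below 0 (median -1.27) and Msln and Krt19 were called lower, the sum going from between 85.3 and 662 TPM to between 73.5 and 238 TPM. Once adipocyte gene level entered the fit as a covariate, H2-DMa was at -0.84 (SE 0.28, adjusted p = 0.114) and no longer called. With TPM rescaled without erythroid and seminal vesicle genes H2-DMa was at -0.86 (adjusted p = 0.00367). The part of macrophage and mesothelial RNA was not tested. Between diets H2-DMa gave 0.02 at 8, -0.17 at 20 and 0.18 at 34 weeks, with an adjusted p of 0.653 or more.

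H2-DMb1, the β chain, passed no test. It was at 122, 127, 160 and 125 TPM in CHOW 8 weeks, between 72.2 and 287 TPM (median 195) in HFD 8 weeks, at 175, 205, 103, 95.7 and 89.7 TPM in CHOW 20 weeks and between 130 and 181 TPM (median 147) in HFD 20 weeks. In no comparison were its groups apart. It was 0.36 higher on HFD at 8 weeks (SE 0.29, adjusted p = 0.746) and 0.24 at 20 weeks (SE 0.27, adjusted p = 0.603), neither past the test, and its change from 8 to 20 weeks on HFD was -0.20 (95% interval -0.74 to 0.35, adjusted p = 0.673). At 34 weeks it ran from 65.0 to 202 TPM in CHOW and from 128 to 314 TPM in HFD, a difference of 0.31 (adjusted p = 0.612).

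The ratio of the H2-M chains was lower at 20 than at 8 weeks on HFD, a difference that passed the adjustment with H2-DMb1 alone and not with its paralog added. H2-DMa over H2-DMb1 was 0.954 ± 0.128 in CHOW 8 weeks (SD, n = 4), 0.752 ± 0.123 in HFD 8 weeks (n = 6), 0.701 ± 0.0536 in CHOW 20 weeks (n = 5), 0.528 ± 0.0484 in HFD 20 weeks (n = 6), 0.635 ± 0.0952 in CHOW 34 weeks (n = 7) and 0.578 ± 0.0650 in HFD 34 weeks (n = 6). The ratios of the 3 chain pairs were taken up after the levels had been seen and gave 15 two-sided exact permutation tests. From 8 to 20 weeks on HFD the log2 ratio changed by -0.50 (SE 0.11), and the 6 libraries of each time did not overlap (exact permutation p = 0.00216, the smallest that 6 against 6 can give, and 0.0324 adjusted over the 15). On CHOW it was -0.44 (SE 0.11), again without overlap (exact p = 0.0159, the smallest that 5 against 4 can give, and 0.0795 adjusted).

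Between diets the log2 ratio was -0.35 at 8 weeks (SE 0.14, exact p = 0.0476, 0.179 adjusted), -0.41 at 20 weeks (SE 0.07, exact p = 0.00866, 0.0649 adjusted) and -0.13 at 34 weeks (SE 0.10, exact p = 0.246, 0.458 adjusted). Only the change on HFD passed the adjustment. A ratio within a library does not depend on the scaling of that library. H2-DMb1 has a near-identical neighbour, H2-DMb2, and reads shared by them may have been split unevenly by the quantification. H2-DMb2 fell from 22.4 ± 5.9 to 8.83 ± 5.0 TPM (SD, n = 6 each) from 8 to 20 weeks on HFD, by 1.33 on the log2 scale (SE 0.25, adjusted p = 0.00174). On CHOW its mean also went down, from 25.9 to 14.3 TPM, by 0.85 on the log2 scale, which was not called. With both β genes summed, an alternative chosen after the data were seen, the change of the log2 ratio was -0.40 on HFD over time (unadjusted exact p = 0.00433), -0.34 on CHOW over time (exact p = 0.0317), -0.27 between diets at 8 weeks (exact p = 0.0762) and -0.34 at 20 weeks (exact p = 0.00866). With this ratio in place of the first, none of the 15 tests passed the adjustment, the change on HFD over time and the diet difference at 20 weeks both having an adjusted p of 0.0649.

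**Figure D3:**
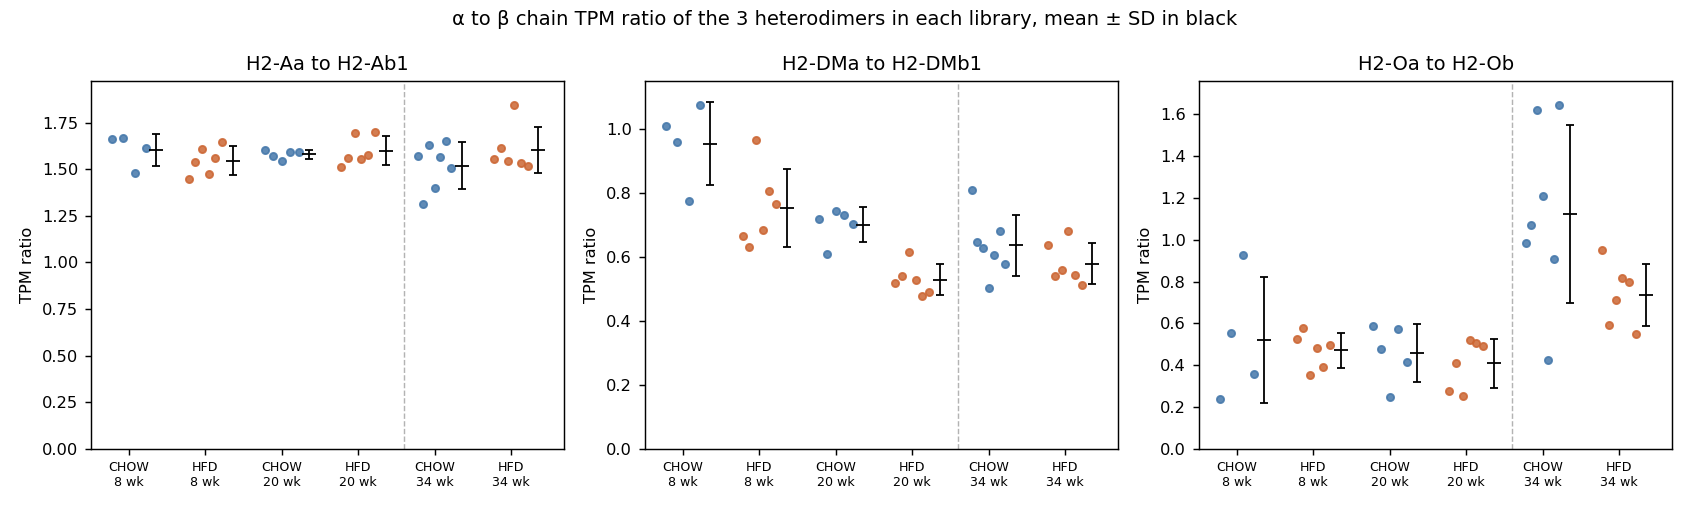
Ratio of α to β chain TPM for I-A (H2-Aa over H2-Ab1), H2-M (H2-DMa over H2-DMb1) and H2-O (H2-Oa over H2-Ob). Dots are libraries and bars the group mean ± SD. The H2-M ratio goes from 0.954 in CHOW 8 weeks to 0.528 in HFD 20 weeks, while the I-A ratio stays between 1.52 and 1.61.

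H2-O, the inhibitor of H2-M, passed no test, but its β chain came closest between diets at 20 weeks. H2-Ob, its β chain, was at 14.8, 7.82, 17.2 and 8.12 TPM in CHOW 8 weeks and between 5.37 and 11.6 TPM (median 9.77) in HFD 8 weeks. It was at 11.5, 10.2, 15.3, 13.9 and 12.4 TPM in CHOW 20 weeks and between 6.09 and 15.2 TPM (median 6.95) in HFD 20 weeks. At 20 weeks 5 of the 6 HFD libraries lay below every CHOW library, and the exception was replicate 2, at 15.2 TPM.

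The difference in H2-Ob at 20 weeks was -0.59 (SE 0.24, 95% interval -1.08 to -0.10, unadjusted p = 0.0201, adjusted p = 0.0934 by limma). It missed the threshold, and passed it without HFD replicate 2, at -0.76 with an adjusted p of 0.0295. At 34 weeks H2-Ob ran from 2.86 to 11.2 TPM (median 6.46) in CHOW and from 8.69 to 12.0 TPM (median 10.6) in HFD. There the difference went the other way, 0.67 (SE 0.25, 95% interval 0.14 to 1.21, adjusted p = 0.284). The 2 tables were made apart, so the reversal itself was not tested.

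H2-Oa, the α chain, had the lowest mean of the 9 in each group of 8 and 20 weeks and ran, over all 34 libraries, from 1.69 TPM in HFD 20 weeks replicate 1 to 15.96 TPM in CHOW 8 weeks replicate 3. It stood at 3.49, 4.32, 15.96 and 2.92 TPM in CHOW 8 weeks, where replicate 3 was far above the rest. It was at 6.76, 4.86, 3.76, 7.99 and 5.15 TPM in CHOW 20 weeks against 1.69 to 6.20 TPM (median 3.33) in HFD 20 weeks. These groups overlapped and differed by -0.64 (SE 0.34, 95% interval -1.33 to 0.06, adjusted p = 0.207).

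Markers of B cells, which make H2-O, were given beside these values. The 10 B cell genes summed to between 57.8 and 132 TPM in CHOW 20 weeks and between 32.7 and 134 TPM in HFD 20 weeks. Of the 10, 0 were called, against 14.3% of all genes, and 1 had an unadjusted p under 0.05 by limma. Their median log2 fold change was -0.20. At 34 weeks they summed to between 34.2 and 59.5 TPM in CHOW and between 55.4 and 104 TPM in HFD. All 9 of those tested lay above 0 and 1 was called (Cd79a, a chain of the B cell receptor, 0.89, SE 0.16, adjusted p = 0.0461), against 0.243% of all genes. The B cell gene Ms4a1 was above 0 in every library. The part of B cells in the H2-Ob values was not tested. Correlations of H2-Oa or H2-Ob with the other 7 genes and with each other ran from -0.0484 to 0.753 across the 21 libraries, the highest being that between H2-Oa and H2-Ob, and those among the other 7 ran from 0.621 to 0.989, so the ranges overlapped.

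Ciita, the coactivator that class II transcription depends on, was low. It was at 9.47, 9.42, 5.62 and 8.11 TPM in CHOW 8 weeks and between 7.72 and 24.1 TPM (median 13.3) in HFD 8 weeks. HFD replicates 1, 2, 4 and 5 lay above every CHOW library, and replicates 3 and 6, with seminal vesicle and erythroid RNA, among them. The difference was 0.64 (SE 0.29, 95% interval 0.03 to 1.25, unadjusted p = 0.0405, adjusted p = 0.495 by limma).

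By 20 weeks Ciita was at 10.8, 10.3, 6.20, 5.03 and 4.22 TPM in CHOW and between 5.09 and 11.2 TPM (median 7.72) in HFD. The groups overlapped, with a difference of 0.16 (SE 0.28, 95% interval -0.41 to 0.73, adjusted p = 0.739). From 8 to 20 weeks on HFD Ciita changed by -0.67 (SE 0.26, 95% interval -1.22 to -0.13, adjusted p = 0.103), which missed the threshold. It passed under 6 of the 13 other settings and in 0 of the 12 fits without 1 library. On CHOW the change was -0.19 (95% interval -0.83 to 0.44, adjusted p = 0.872). At 34 weeks Ciita ran from 6.09 to 19.03 TPM (median 11.9) in CHOW and from 6.35 to 31.4 TPM (median 12.7) in HFD, a difference of 0.17 (95% interval -0.52 to 0.85).

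Set beside the summed RNA of 10 macrophage genes, class II RNA was lower at 20 weeks of HFD. The 10 macrophage genes (Adgre1, Csf1r, Cd68, Lyz2, C1qa, C1qb, C1qc, Mrc1, Fcgr1 and Mertk) summed to 7664 ± 3140 TPM in CHOW 20 weeks (SD, n = 5) and 12988 ± 3454 TPM in HFD 20 weeks (n = 6). At 20 weeks 5 of them were called higher (Adgre1, Cd68, Lyz2, C1qb and C1qc) and 0 lower, against 14.3% of all genes called. Of the 10, 1 lay below 0, at -0.51. Abundant genes weigh most in the sum: Lyz2 held 4920 of its mean of 9047 TPM in CHOW 8 weeks. The summed TPM of H2-Aa, H2-Ab1, H2-Eb1 and Cd74 was 11708 ± 2002 in CHOW 20 weeks and 10101 ± 1259 in HFD 20 weeks. The ratio of the class II sum to the macrophage sum ran from 1.31 to 1.40 in CHOW 8 weeks, 1.08 to 1.71 in HFD 8 weeks, 1.096 to 1.96 in CHOW 20 weeks and 0.674 to 1.006 in HFD 20 weeks. Every HFD 20 weeks library lay below every library of the other 3 groups of its table. At 34 weeks the ratio was 0.535 to 0.780 in CHOW and 0.336 to 1.21 in HFD, and the groups overlapped. This ratio was chosen after the levels had been seen and is a description.

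The class II sum was also set against other cells. Over the summed TPM of 10 pan-leukocyte genes, the class II sum ran from 5.53 to 8.26 in CHOW 20 weeks and from 4.08 to 5.42 in HFD 20 weeks, again without overlap. Over 10 dendritic cell genes it was 19.8 ± 2.23 in CHOW 20 weeks and 19.5 ± 1.59 in HFD 20 weeks, and the libraries overlapped. That likeness rested on Itgax: without it in the list, an alternative chosen after the data were seen, the ratio was 21.3 ± 3.62 in CHOW 20 weeks (16.8 to 26.3) and 29.6 ± 4.04 in HFD 20 weeks (25.02 to 34.2), with a higher mean on HFD and a small overlap. Of the dendritic cell genes, Cd209a (-2.95, SE 0.24, adjusted p = 3.42e-07) and Clec10a (-0.90, SE 0.22, adjusted p = 0.00909), both lectins, were lower on HFD at 20 weeks and Itgax (CD11c) was higher (2.94, SE 0.53, adjusted p = 0.00116). Itgax is also made by macrophages of obese fat. Clec10a weighed on both dendritic cell ratios. In its highest library, CHOW 20 weeks replicate 1, it held 447 of the 720 TPM of the dendritic cell sum. In its lowest, HFD 20 weeks replicate 5, it held 112 of 454 TPM, and no ratio without it was taken. The defining dendritic cell genes Flt3 and Zbtb46 gave -0.84 and -0.63 and did not pass (adjusted p = 0.0833 and 0.0698). The mean standardised level of the 9 class II genes was set against the mean log2(TPM + 1) of each marker list. Across the 21 libraries, Pearson's r was 0.844 with the dendritic cell, 0.788 with the pan-leukocyte and 0.394 with the macrophage genes. It was 0.096 with the adipocyte, 0.0753 with the B cell and -0.0443 with the T cell genes. Across the 13 libraries of 34 weeks r was highest with the T cell genes (0.91). The dendritic cell (0.821), macrophage (0.812), pan-leukocyte (0.78), B cell (0.548) and adipocyte genes (-0.513) followed. HFD 34 weeks replicate 4 was highest of all libraries in summed TPM of the 9 class II genes (23182) and of the T cell genes (202). CHOW 34 weeks replicate 6 was lowest in both (4148 and 25.4). These correlations are across libraries that share depth and makeup.

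**Figure D4:**
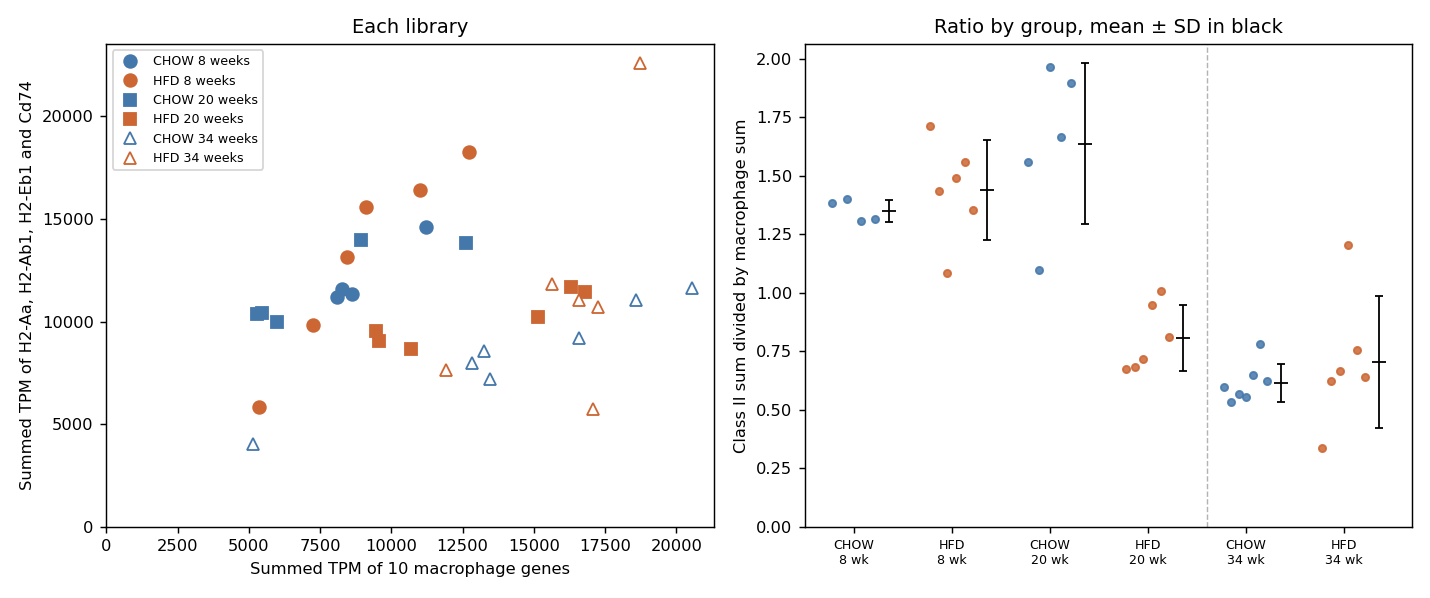
Class II RNA against macrophage RNA. In the first panel each dot is a library, with the summed TPM of 10 macrophage genes against the summed TPM of H2-Aa, H2-Ab1, H2-Eb1 and Cd74, and the second panel shows their ratio by group. The HFD 20 weeks ratios lie between 0.674 and 1.006, under those of CHOW 20 weeks (1.096 to 1.96).

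Among the genes that serve class II presentation, the lysosomal proteases were higher on HFD at 20 weeks. Of 9 genes for invariant chain cleavage and antigen processing, 5 were called higher and 0 lower on HFD at 20 weeks, with a median log2 fold change of 0.98. Of all genes 14.3% were called there, 1566 higher and 839 lower. Ctsd rose from 955 to 4011 TPM, without overlap (2.16, SE 0.30, adjusted p = 0.000126), Ctss, which makes the last cut in the invariant chain, by 1.71 (SE 0.37, adjusted p = 0.00459), Ctsb by 1.23 (SE 0.25, adjusted p = 0.00333) and Ctsl by 1.09 (SE 0.22, adjusted p = 0.00303). Lgmn (asparagine endopeptidase, 0.98) was the fifth. On HFD, 3 were called higher from 8 to 20 weeks (Ctsd 1.48, Ctsb 1.12 and Ctsl 1.04) and 1 lower, against 8.78% of all genes called. That one was March1, the ubiquitin ligase that sends class II from the surface to lysosomes, at -0.72 (SE 0.23, adjusted p = 0.0495). Lysosomal proteases are abundant in macrophages, whose genes moved in the same comparisons, and their part in these values was not tested. At 8 and 34 weeks 0 of the 9 were called between diets (0 with an unadjusted p under 0.05 at either time by limma).

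Of 11 genes for class II transcription, 0 were called between diets at 20 weeks (0 with an unadjusted p under 0.05, median -0.02), against 14.3% of all genes. Rfx5, which binds the X box, rose from 7.86 ± 0.70 TPM in CHOW 8 weeks (SD, n = 4) to 17.5 ± 5.3 TPM in CHOW 20 weeks (n = 5), without overlap (1.02, SE 0.21, adjusted p = 0.0300). On HFD it rose by 0.73 (SE 0.18, adjusted p = 0.0147), and so did Irf1, an interferon-induced factor that acts on a Ciita promoter (1.14, SE 0.21, adjusted p = 0.00149). None of the 9 class II genes was called higher in either comparison. Of 5 interferon γ genes, only Jak2, a kinase of its receptor, was called, at 0.77 from 8 to 20 weeks on HFD (SE 0.23, adjusted p = 0.0462). There 8.78% of all genes were called. Ifng itself ran from 0.523 to 7.53 TPM in HFD 20 weeks and did not differ past the test between diets at 20 weeks (95% interval -0.77 to 0.77).

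The class I pathway, which loads peptides from the cytosol, had 2 of 15 genes called between diets at 20 weeks, near the 14.3% of all genes called there. Both were lower: Nlrc5, the class I counterpart of Ciita, at -0.83 (SE 0.17, adjusted p = 0.00312) and Tap1, a subunit of the peptide transporter, at -0.77 (SE 0.17, adjusted p = 0.00587). Of 7 costimulatory or coinhibitory genes, 1 was called higher and 2 lower on HFD at 20 weeks, where 14.3% of all genes were called. The higher one was Tnfsf4 (OX40 ligand, 2.00, SE 0.30, adjusted p = 0.000260). The lower ones were Cd86 (-1.02, SE 0.22, adjusted p = 0.00441) and Cd274 (PD-L1, an inhibitory ligand, -0.67, SE 0.15, adjusted p = 0.00587). Tnfsf4 ran between 2.41 and 5.87 TPM in CHOW libraries and between 12.6 and 30.96 TPM in HFD libraries, with no overlap. Cd86 gives T cells their second signal beside class II, and its groups did not overlap. From 8 to 20 weeks on HFD, 2 of the 7 were called higher and 2 lower, against 8.78% of all genes called. The higher were Tnfsf4 (3.06, SE 0.29) and Cd40 (2.17, SE 0.26), and the lower Cd80 (-0.78, SE 0.22) and Cd86 (-0.74, SE 0.21). Cd40 was also called higher from 8 to 20 weeks on CHOW (1.72, SE 0.30, adjusted p = 0.0111). Of 6 genes of the T cells that read class II, 3 were called lower on HFD at 20 weeks, where 14.3% of all genes were called: Ctla4 (-1.04, SE 0.30, adjusted p = 0.0267), Icos (-0.79, SE 0.22, adjusted p = 0.0233) and Cd4 (-0.64, SE 0.19, adjusted p = 0.0308). T cell markers moved with them: 8 of 10 lay below 0 (median -0.27), 1 was called lower (Trac, a T cell receptor chain, -0.73, adjusted p = 0.0389), and their sum was between 67.3 and 132 TPM in CHOW and between 46.1 and 72.02 TPM in HFD. Their part in the result was not tested. The further class II β genes H2-DMb2 and H2-Eb2 gave -0.72 and -0.49 on HFD at 20 weeks and missed the threshold (adjusted p = 0.0666 and 0.117).

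**Figure D5:**
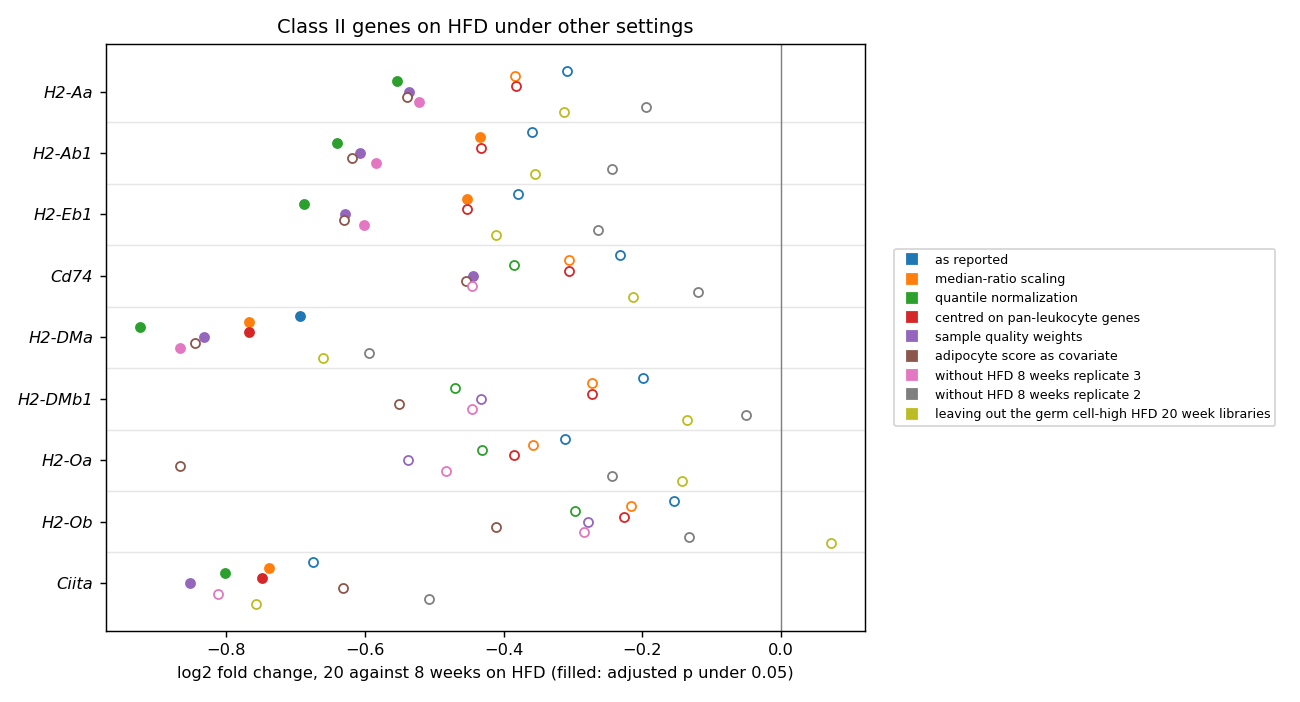
Change of the 9 class II genes from 8 to 20 weeks on HFD under 9 settings. Each point is a log2 fold change of log2(TPM + 1), in colour by setting and filled where the adjusted p was under 0.05. H2-DMa lies between -0.92 and -0.59, and the only point above 0 is H2-Ob at 0.07 without the HFD libraries high in germ cell genes.

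Other genes were ranked by how like their log2(TPM + 1) was to the mean standardised level of the 9 class II genes. The ranking held 12807 genes that passed the filter in both tables, without unnamed genes and those with Gm, Rik or clone-type names. The 10 most alike were Mysm1, Tet3, Arhgap45, Pld4, Nlrp1b, Sept6, Akap8, Rgs14, Fam117b and Rab43. The measure was Pearson's r, ranked by the lower of its values in the 2 tables. For Mysm1, a histone H2A deubiquitinase, r was 0.878 across 21 libraries and 0.907 across 13. For Tet3, which oxidises methylated cytosine, it was 0.893 and 0.876, and for the tenth gene, Rab43, 0.789 and 0.825. Each class II gene is itself part of this common level, which raises its own r. Among them H2-Ab1 was closest to it (0.982 and 0.979). The least close was H2-Ob in the 21 libraries (0.521) and H2-Oa in the 13 (0.625).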

How the data were processed

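The authors aligned trimmed reads of poly(A) SVF libraries to mm10 transcripts (gencode M10) with Salmon and deposited gene-level TPM. The 21 libraries of 8 and 20 weeks and the 13 of 34 weeks are in separate tables. Trimmomatic, FastQC, MultiQC and DESeq2 are named in the submitters' processing notes, and versions were not given in the sources used here. A symbol was matched to 31791 of 32098 gene IDs. No read counts were used here, so depth is unknown and no count test was run. Each table was analysed with limma 3.58.1 in R 4.3.3 on log2(TPM + 1), 1 mean per group and a mean-variance trend, for genes of at least 1 TPM in at least 4 libraries (8 and 20 weeks) or 6 (34 weeks). Tests were two-sided and adjusted by Benjamini-Hochberg over all genes tested. Folds on this scale understate changes of low genes. Ratios were compared by exact permutation (scipy 1.17.1). The fits were tested on simulated data. Group and replicate came from the sample titles, and no 2 libraries held identical values. The 9 genes were named throughout, from each pathway list up to 4 called genes a comparison, and from marker lists the sums and defining genes. One marker gene is not reported here. Beyond that rule Lgmn, H2-Eb2, Ifng, Clec10a, Cd209a, Itgax, Cd79a and the called macrophage genes were named after their values were seen. The genes and lists were chosen with earlier results of these data known. Alternatives covered pseudocount, filter, scaling, weights, covariates, blocks and left-out libraries.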

Additional observations from a re-analysis of the deposited data

Results flagged for a closer look

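In 12 of 72 sets of values (9 genes and 3 chain ratios in each of 6 groups), 1 library lay further from its group than Dixon's limit allows. Chance alone passes this limit in about 1 of 20 groups, and the genes move together, so these are not separate events. In HFD 34 weeks replicate 4 stood above its group for H2-Aa (6256 TPM), H2-Eb1 (4327 TPM), H2-DMa (214 TPM) and Ciita (31.4 TPM) and for the ratio of H2-Aa to H2-Ab1 (1.85). In CHOW 8 weeks replicate 3 stood above its group for H2-Ab1 (2357 TPM), H2-Eb1 (2816 TPM), H2-DMb1 (160 TPM), H2-Oa (15.96 TPM) and Cd74 (5966 TPM). Replicate 2 of HFD 20 weeks was high for H2-Ob (15.2 TPM), and replicate 6 of CHOW 34 weeks was low for H2-DMb1 (65.0 TPM).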

How the results depend on the processing

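The count of called class II genes was 0 under every alternative between diets at 8 weeks (22), at 34 weeks (26) and for the interaction (33). Between diets at 20 weeks it rose from 0 to 1 with median-ratio scaling, quantile normalization, TPM rescaled without erythroid and seminal vesicle genes, or sample quality weights (H2-Ob in each, adjusted p = 0.0368, 0.0306, 0.0445 and 0.0299) and with libraries centred on leukocyte genes (H2-Eb1, -0.54, adjusted p = 0.0338). Leaving out 1 library gave 0 to 1. On CHOW over time it rose from 0 to 1 with quality weights (H2-DMa, -0.63, adjusted p = 0.0278). On HFD over time it was 1, and 0 with no filter, no trend, an adipocyte covariate, only the compared groups, or without the 3 libraries high in germ cell genes. It was 2 with centring on leukocytes, 3 with rescaled TPM, 4 with median-ratio scaling, 5 with quantile normalization and 6 with quality weights. Of all 16808 genes tested, these settings called 752, 2027, 2441, 2755 and 2073, in that order. Without 1 library the count of class II genes was 0 to 4, and that of all genes between 932 and 1842. The cause was not tested. The rescaling and the germ cell and chain-sum alternatives were chosen after seeing the data. The groups hold different mice, and replicate numbers were not treated as pairs. On HFD over time, deviations of same-numbered libraries from their group means had r from 0.0475 to 0.404. The median was 0.282, against -0.0474 for other numbers, and 5 of 6 libraries were best with their own number. What same-numbered libraries share was not tested. With the replicate block the count on HFD was 2 (H2-DMa, adjusted p = 0.0286, and Ciita, 0.0323), and the block moved no other count. Of 1359 gene values, 26 gained and 14 lost a call, and 79 changed sign without a call. Of all calls on HFD over time, 69.8% were higher, and 40.8% after quantile normalization, 40.7% after rescaling and 42.9% with weights. Centring on leukocytes moved the median of all genes at 20 weeks from 0.08 to -0.17. With TPM, the depth behind the lowest genes, H2-Oa and Ciita among them, is unknown, which limits what can be said of them.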
